A study of Mus musculus with 15 samples.

Results

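The matrix metalloproteinases described here were Mmp2, Mmp3, Mmp8, Mmp9, Mmp10, Mmp12, Mmp13, Mmp14, Mmp19 and Mmp23, 10 of the 18193 genes that the array's annotation ties to a probe set with a single symbol. They were chosen by symbol and held 16 probe sets. In mouse knee synovium, 9 of the 10 passed the filter on low signal, and Mmp10 did not. Signal was measured on 15 Affymetrix arrays of total RNA, in 5 groups of 3: naive joints, labelled healthy, and joints of mice with collagen-induced arthritis (CIA) and no, mild, moderate or severe swelling. CIA is an arthritis that follows immunization against type II collagen, a protein of cartilage. The treatment text describes a first dose of 100 µg of the collagen, given with FCA at day 0, and a boost of 100 µg, i.p., at day 21. The naive arrays carry this same treatment text, and they were taken as healthy from their title and tissue label. Strain, age and the number of mice behind an array are not given in the sources used here, so p-values measure the spread between arrays, which may be technical. The time from immunization to sampling is likewise not given.

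Matrix metalloproteinases are zinc-dependent endopeptidases that cleave the components of the extracellular matrix. Most are made as inactive proenzymes, kept inactive by a cysteine in the propeptide, and gain activity when the propeptide is removed. In inflamed joints they are known as products of synovial fibroblasts, macrophages, neutrophils, chondrocytes and osteoclasts, and are held in check by the tissue inhibitors of metalloproteinases, the TIMPs. The data here are transcript signals and say nothing of protein or of enzyme activity.

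All 9 tested metalloproteinase genes were higher in severe swelling than in naive joints, from 1.47 ± 0.28 for Mmp12 to 7.29 ± 0.73 for Mmp13 (log2 difference ± SE, n = 3 arrays each). Among all 14314 genes tested, 32.3% were called higher in that comparison. Mmp12 passed the filter only through 3 moderate and 2 severe arrays, and Mmp13 and Mmp19 through no naive array, so the filter favoured genes high in swelling. With no filter 9 of the 10 were called higher, Mmp10 being the other. Calls rest on limma with Benjamini-Hochberg adjustment at 0.05, and differences are on the scale of log2(signal + 16), which understates the change of dim genes. None of the 9 was called in immunized joints without swelling against naive, where 217 of all 14314 genes were called higher and 252 lower. None differed by the test between severe and moderate swelling, where 0 of all genes did.

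Promoter sequences are shown for the 4 genes with an AP-1 core, which include Mmp13, the member with the largest difference, and Mmp10, which did not pass the filter, and for Mmp14, which has no AP-1 core. They are RefSeq windows on GRCm38.p6, from 250 bases before to 50 bases after a transcript start, written 5′ to 3′ on the strand of the gene. Capitals mark matches, on either strand, to TGANTCA, the core of AP-1 sites, to TATAAA, the TATA box, and to TGTGGT, a RUNX core, which reads ACCACA where it lies on the opposite strand. The windows of Mmp13 (chr9:7272264-7272563), Mmp3 (chr9:7445572-7445871), Mmp10 (chr9:7502092-7502391), the second start of Mmp12 (chr9:7347124-7347423) and Mmp14 (chr14:54431348-54431647) all lie on the plus strand.
Mmp13: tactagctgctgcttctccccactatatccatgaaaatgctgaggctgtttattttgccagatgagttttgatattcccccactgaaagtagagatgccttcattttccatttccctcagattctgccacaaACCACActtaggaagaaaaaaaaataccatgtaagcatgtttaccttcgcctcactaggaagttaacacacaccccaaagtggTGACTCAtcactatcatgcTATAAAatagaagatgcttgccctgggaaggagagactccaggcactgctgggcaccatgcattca
Mmp3: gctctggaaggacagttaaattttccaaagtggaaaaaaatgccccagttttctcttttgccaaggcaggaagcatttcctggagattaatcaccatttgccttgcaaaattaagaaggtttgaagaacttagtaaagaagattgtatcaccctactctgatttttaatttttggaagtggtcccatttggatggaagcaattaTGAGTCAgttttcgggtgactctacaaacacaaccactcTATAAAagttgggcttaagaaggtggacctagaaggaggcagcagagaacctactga
Mmp10: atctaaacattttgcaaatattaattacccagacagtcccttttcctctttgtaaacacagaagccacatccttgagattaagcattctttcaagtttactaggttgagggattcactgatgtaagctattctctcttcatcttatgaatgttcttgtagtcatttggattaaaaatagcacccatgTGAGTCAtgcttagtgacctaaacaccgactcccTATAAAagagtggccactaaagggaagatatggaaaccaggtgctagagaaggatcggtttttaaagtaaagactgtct
Mmp12: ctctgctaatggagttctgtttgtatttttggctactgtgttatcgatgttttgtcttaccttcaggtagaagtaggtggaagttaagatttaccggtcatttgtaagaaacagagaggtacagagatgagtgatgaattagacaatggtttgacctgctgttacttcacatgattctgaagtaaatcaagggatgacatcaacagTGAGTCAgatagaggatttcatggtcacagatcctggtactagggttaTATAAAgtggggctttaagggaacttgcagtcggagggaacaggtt
Mmp14: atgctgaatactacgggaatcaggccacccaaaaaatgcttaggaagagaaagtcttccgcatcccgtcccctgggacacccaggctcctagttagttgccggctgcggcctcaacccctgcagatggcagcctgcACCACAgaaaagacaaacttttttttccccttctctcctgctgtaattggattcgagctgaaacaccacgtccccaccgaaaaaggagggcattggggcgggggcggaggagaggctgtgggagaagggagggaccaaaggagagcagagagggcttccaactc

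The table of promoters held 7 of the 10 genes, with 9 windows, since Mmp12 and Mmp23 have 2 starts each. Mmp2, Mmp9 and Mmp19 were not in it. An AP-1 core was found for 4 of the 7 genes (Mmp3, Mmp10, Mmp12 and Mmp13), and each of these windows also held TATAAA downstream of it. In Mmp13 the AP-1 core spanned positions -35 to -29 and TATAAA -16 to -11 from the start, and in Mmp3 they spanned -46 to -40 and -7 to -2. In Mmp10 they spanned -63 to -57 and -29 to -24. In the second window of Mmp12 they spanned -44 to -38 and 5 to 10, so TATAAA there lay past the start. Of all 27025 genes in the table, 8.97% held the AP-1 core in a window, 15.7% held TATAAA and 1.84% held both in 1 window. The RUNX core was present in Mmp13, Mmp14 and 1 of the windows of Mmp23, and in 18.9% of all genes. Mmp8 held TATAAA alone, on the opposite strand. These are matches of letters, not measured sites. The 4 genes with both letters lie within a run of 10 metalloproteinase genes on chromosome 9, in the order Mmp13, Mmp12, Mmp1b, Mmp3, Mmp1a, Mmp10, Mmp8, Mmp27, Mmp20 and Mmp7, and paralogs of this kind share ancestry.

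**Figure D1:**
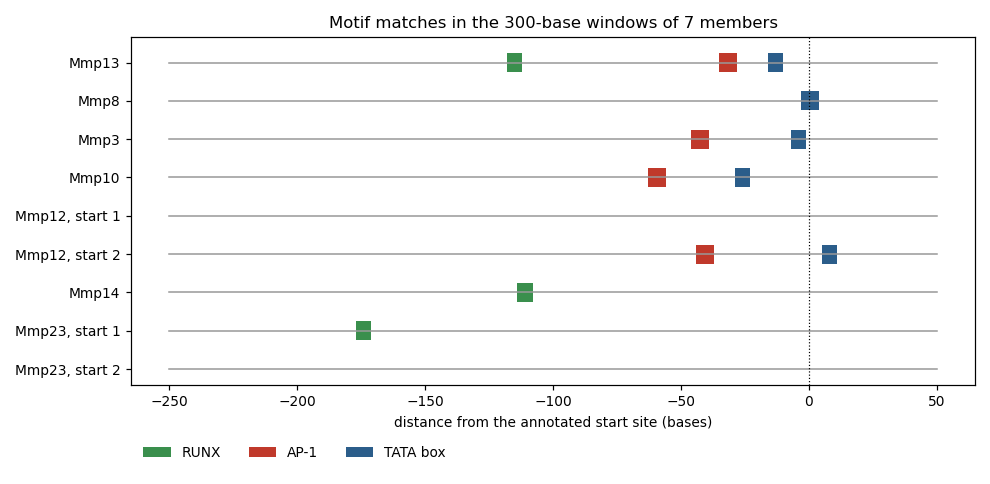
Map of the promoter windows, drawn to scale along the distance in bases from the transcript start, with a mark for each AP-1, TATA box and RUNX match. Mmp3, Mmp10, Mmp13 and the second window of Mmp12 have an AP-1 core upstream of TATAAA, which in Mmp12 lies after the start.

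Facts on the arrays come first, since they bear on every gene. The mean signal after trimming 2% at each end was equal on all arrays, the median signal ranged from 36.3 to 47.6, and the 40th percentile, the level used in the filter, ranged from 23.4 to 31.1. The number of arrays limits the precision. The arrays no swelling replicate 1 and mild replicate 2 were singled out after seeing the data. Calls lost without them are given with the genes. Over all genes tested, arrays of a group correlated at 0.971 to 0.977 without swelling, 0.948 to 0.980 in mild and 0.964 to 0.976 in severe swelling. These ranges do not show which array was least alike. In bulk tissue, more cells of a type and more RNA per cell cannot be told apart.

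Collagenases cut the triple helix of fibrillar collagens. Mmp13, collagenase 3, which prefers type II collagen of cartilage, had signals of 0.8, 7.1 and 3.1 in naive joints, 157.2, 9.6 and 14.4 without swelling, and 215.1, 82.2 and 1169.8 in mild swelling. It had 2914.2, 4767.6 and 3571.8 in moderate and 3554.1, 3751.6 and 2099.4 in severe swelling. All naive arrays lay under the 40th percentile, and every moderate and severe array lay above every other array. The mild arrays were far apart, from 82.2 to 1169.8, and the lowest of them lay under the highest array without swelling. Severe exceeded naive by 7.29 ± 0.73 log2 units (limma adjusted p = 9.56e-07), and moderate exceeded mild by 3.62 ± 0.73 (adjusted p = 0.0121). The calls for the difference of 2.55 between mild and no swelling (adjusted p = 0.0116) and for the step to moderate each depended on single arrays. The first was lost without mild replicate 3, without replicate 2 or 3 of the group with no swelling, or with only the groups compared (adjusted p 0.0557 to 0.0665). The other was lost without mild replicate 2 (adjusted p = 0.0574), without moderate replicate 2 (0.0518) or with only the groups compared (0.066). The step to moderate itself was still 2.82 ± 0.69 without mild replicate 2 and 3.44 ± 0.83 without moderate replicate 2. The difference between mild and no swelling was 1.55 ± 0.60 without mild replicate 3.

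Mmp8, the collagenase stored in neutrophil granules, moved far less. Its signals were 15.5, 6 and 28.1 in naive joints, 46.7, 35.3 and 32.8 without swelling, 36.1, 46.5 and 99.2 in mild, 76.9, 91.7 and 58.5 in moderate, and 118.3, 74.1 and 66.6 in severe swelling. Every immunized array lay above every naive array, and the immunized groups adjoining in swelling overlapped. The severe group exceeded naive by 1.68 ± 0.30 (adjusted p = 0.000202; 0.89 with a pseudocount of 64) and no swelling by 0.89 ± 0.30 (adjusted p = 0.0202). The difference from no swelling missed the threshold after quantile normalization (adjusted p = 0.0739), and also without severe replicate 1 or without replicate 2 or 3 of the group with no swelling (0.0505 to 0.104).

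The stromelysins cleave proteoglycans, fibronectin and other matrix proteins, and can process other proenzymes of the family. Mmp3, stromelysin 1, had 103.8, 95.5 and 60.1 in naive joints, 292.4, 235.8 and 131.3 without swelling, and 2147.4, 889.8 and 3038.5 in mild swelling. In moderate swelling it had 3476, 5656.1 and 3883.5, and in severe swelling 5659.7, 3298.2 and 5076.6. Naive, no swelling, mild and moderate arrays formed 4 ranges that did not overlap, while severe and moderate arrays did overlap. Against naive, severe swelling was higher by 5.51 ± 0.37 (adjusted p = 5.94e-08), a 45.5-fold difference on this scale. Mild exceeded no swelling by 3.01 ± 0.37 (adjusted p = 4.85e-05). The difference of 1.16 ± 0.37 between no swelling and naive was not called (adjusted p = 0.103), though it was without mild replicate 2 (adjusted p = 0.0298).

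Mmp10, stromelysin 2, showed no such pattern. It had 9.7, 8.7 and 9.1 in naive joints, 33.9, 20.3 and 7.2 without swelling, 17.9, 8.9 and 7.3 in mild, 6, 6.5 and 6.4 in moderate, and 9.5, 7.4 and 6.5 in severe swelling. Only no swelling replicate 1 lay above its array's 40th percentile. With no filter on low signal, severe differed from naive by -0.08 ± 0.22 (adjusted p = 0.803), at a signal where a change would be hard to see. The slope over swelling was then -0.19 ± 0.07 per grade (adjusted p = 0.0359). It too rests on dim values, the highest being 33.9 and 20.3 in the group without swelling. Mmp10 shares the AP-1 core and TATAAA with Mmp3 in the windows printed above.

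Gelatinases cleave denatured collagen and type IV collagen. Mmp2, gelatinase A, widely made by fibroblasts, was bright on all arrays. Its signals were 1105.9, 1321.6 and 1196.3 in naive joints, 708, 1141.9 and 759.6 without swelling, 3320.9, 1509.4 and 3658.5 in mild, 3601.8, 6588.2 and 4626 in moderate, and 8027.7, 4863.5 and 8530.9 in severe swelling. Arrays without swelling overlapped naive arrays, and every mild, moderate and severe array lay above both of those groups. Severe exceeded naive by 2.51 ± 0.31 (adjusted p = 6.01e-06), and mild exceeded naive by 1.12 ± 0.31 (adjusted p = 0.00873). The call for mild was lost without mild replicate 3 (adjusted p = 0.0526).

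Mmp9, gelatinase B, found in neutrophil granules and in osteoclasts, was measured by a brighter and a dimmer probe set. The brighter had 46.7, 60.3 and 26.7 in naive joints, 106.2, 10.1 and 25.5 without swelling, 246.9, 197.3 and 457.9 in mild, 1107, 953.9 and 832.3 in moderate, and 1250.7, 620.2 and 1070 in severe swelling. Mild arrays lay above all naive arrays and all arrays without swelling, and under all moderate and severe ones. In severe swelling it exceeded naive by 4.02 ± 0.44 (adjusted p = 2.17e-06), and moderate exceeded mild by 1.71 ± 0.44 (adjusted p = 0.032). The call between moderate and mild was lost in 8 of 27 other settings (adjusted p 0.0504 to 0.161), among them leaving out mild replicate 1 or 2 or any moderate array. The high value of no swelling replicate 1 was not seen with the dimmer probe set, which had 7.6, 8.7 and 5.1 in that group and 5.2, 3.1 and 6.3 in naive joints. That probe set gave a severe against naive difference of 4.79 ± 0.30. For moderate against mild it gave 2.28 ± 0.30 (limma adjusted p = 0.00221, in the fit of every probe set).

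Mmp12, the macrophage elastase, was dim. Naive arrays had 11.5, 2.7 and 1.1, arrays without swelling 9.4, 9.8 and 1.3, mild 15.9, 11.8 and 20.8, moderate 35, 64.5 and 33, and severe 49.2, 26.9 and 50.6. Every mild array lay above every naive array, but all were under the 40th percentile, and the difference of 0.63 ± 0.28 was not called (adjusted p = 0.0885). The severe group exceeded naive by 1.47 ± 0.28 (adjusted p = 0.000372). The size of this difference depends on the pseudocount: it was 3.18 with a pseudocount of 1 and 0.62 with 64, and it was called with each.

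Mmp14 is a membrane-type enzyme that cleaves collagen at the cell surface and activates the proenzyme of Mmp2. It had 220.4, 293 and 235.1 in naive joints, 301.5, 414.9 and 202.8 without swelling, 897, 688.7 and 1649.7 in mild, 2222.4, 3292.9 and 2759.6 in moderate, and 3817.4, 2924.3 and 3297.6 in severe swelling. Arrays without swelling overlapped naive arrays, mild arrays lay above both, and moderate and severe arrays lay above mild ones and overlapped each other. Severe exceeded naive by 3.66 ± 0.28 (adjusted p = 1.28e-07), and moderate exceeded mild by 1.42 ± 0.28 (adjusted p = 0.0109). The call between moderate and mild was lost without mild replicate 2 (adjusted p = 0.054), without moderate replicate 2 (0.0507), with only the groups compared (0.0688) and without both arrays singled out (0.0627).

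Mmp23 is also anchored in the membrane and lacks the cysteine switch typical of the family. It had 74.1, 108.9 and 80.4 in naive joints, 58.9, 74.4 and 56.6 without swelling, 169.9, 191.3 and 247.1 in mild, 292.1, 380.6 and 332.9 in moderate, and 396.5, 286 and 464.3 in severe swelling. On this probe set, the brighter on average, mild arrays lay above all naive arrays and under all moderate and severe ones. On the other, mild replicate 3 (264.6) lay above moderate replicate 1 (259.4), and moderate against mild was not called (limma adjusted p = 0.0891). Against naive, severe swelling was higher by 1.93 ± 0.19 (adjusted p = 8.4e-07) with the brighter probe set of Mmp23. The other gave 3.06 ± 0.39 (adjusted p = 9.02e-06), so the size of the change depended on the probe set.

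Mmp19, which cleaves basement membrane components, had 13.1, 20.9 and 15.5 in naive joints, 28.3, 37.4 and 8.8 without swelling, 77.3, 47.8 and 68.3 in mild, 125.1, 172.4 and 111.7 in moderate, and 155.7, 91.5 and 165.1 in severe swelling. Mild arrays lay above every naive array and every array without swelling. In severe swelling it exceeded naive by 2.21 ± 0.27 (adjusted p = 6.72e-06), or by 1.30 with a pseudocount of 64. Every other probe set of Mmp2, Mmp14 and Mmp19 was also called higher in severe swelling, with differences between 2.28 and 3.64.

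**Figure D2:**
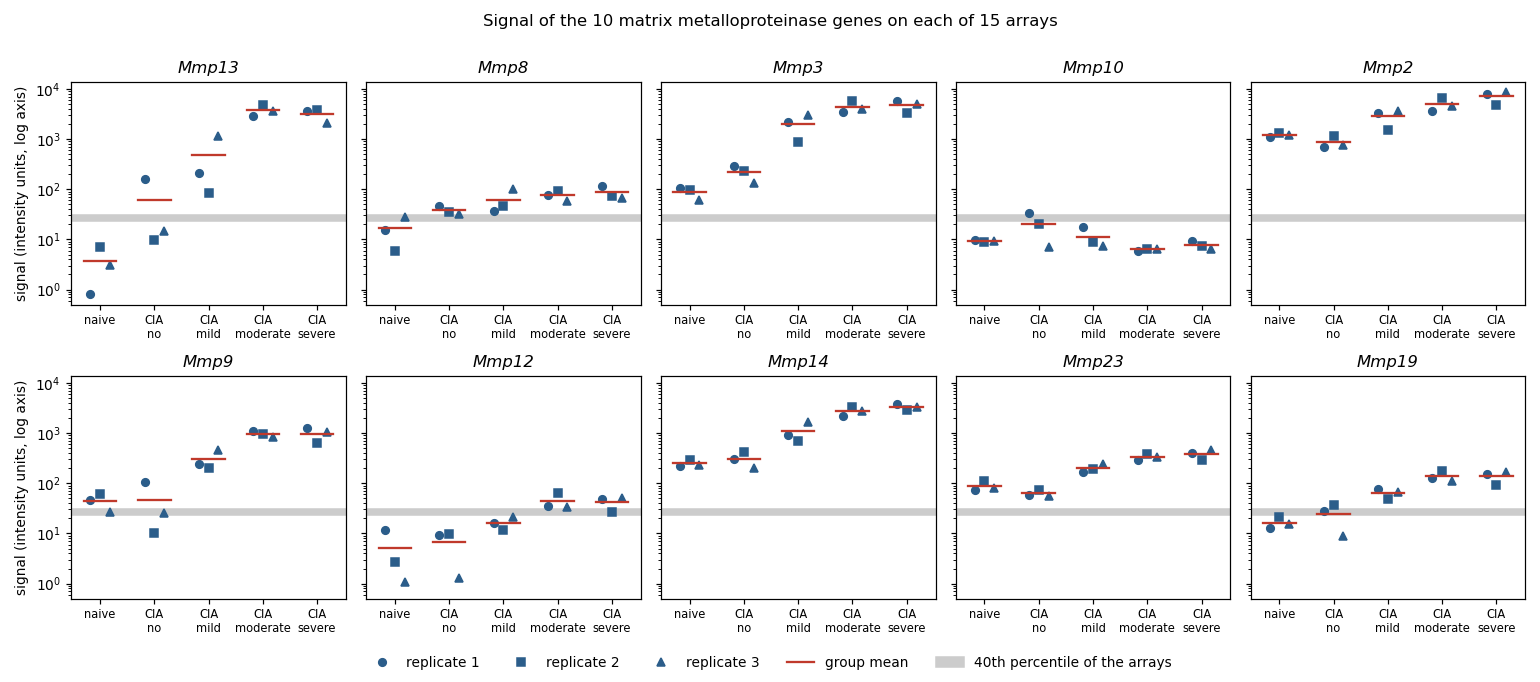
Signal of each of the 10 genes on the 15 arrays, on a log axis, with 1 point per array and groups ordered by swelling from naive. Mmp13 spans the widest range, from under 10 in naive joints to between 2099.4 and 4767.6 in moderate and severe swelling, and Mmp10 stays low in every group.

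By the moderated F test all 9 genes varied over the groups, with adjusted p from 4.22e-08 for Mmp3 to 0.000948 for Mmp8, against 60.7% of all genes tested. Immunized joints without swelling did not differ from naive joints by the test for any of the 9. Of all 14314 genes tested, 217 (1.52%) were called higher and 252 lower there. The estimates for the 9 ran from -0.49 for Mmp2 to 1.39 for Mmp13, and 6 were positive. In mild swelling 8 of 9 exceeded naive, against 23.1% of all genes, with a median of 1.30 over the 9 and 0.05 over all genes. In moderate swelling all 9 did, against 30.9% of all genes. The median in severe swelling was 2.51 over the 9 and 0.11 over all genes. The comparisons with naive share the naive arrays.

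Contrasts among the immunized groups leave out the naive mean, though the naive arrays enter the shared estimate of the spread. Severe exceeded no swelling for all 9, against 33.1% of all genes, from 0.89 for Mmp8 to 5.90 for Mmp13. The slope over the 4 immunized groups was positive and called for all 9, against 33.6% of all genes. It was 2.13 ± 0.23 log2 units per grade for Mmp13, 1.44 ± 0.14 for Mmp9, 1.43 ± 0.12 for Mmp3 and 0.30 ± 0.095 for Mmp8 (adjusted p = 0.0137). The slope of Mmp8 was not called after quantile normalization (adjusted p = 0.0516) or without severe replicate 1 (0.0696).

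**Figure D3:**
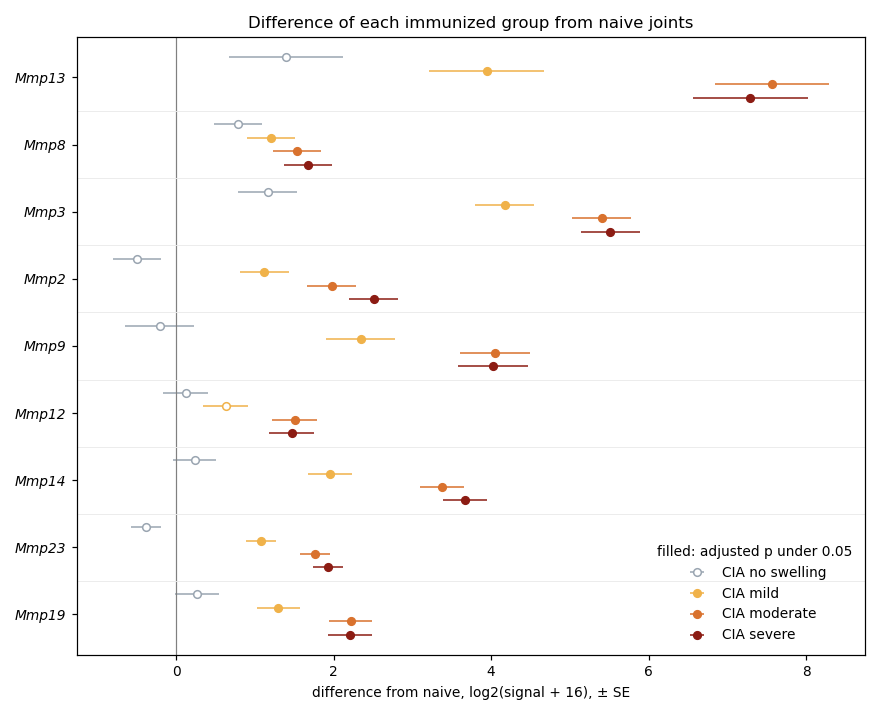
Difference of each immunized group from naive joints in log2(signal + 16), with bars of ± 1 SE, for the 9 tested genes, where filled points passed an adjusted p of 0.05. All points without swelling are open, and Mmp13 reaches 7.29 in severe swelling.

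The step between no and mild swelling was called for 7 of 9, against 23% of all genes. Mmp3 led with 3.01, followed by Mmp9 and Mmp13 with 2.55 each, while Mmp8 (0.42, adjusted p = 0.296) and Mmp12 (0.51, adjusted p = 0.173) were not called. The step between mild and moderate was called for 4, against 3.3% of all genes: Mmp13, Mmp9, Mmp14 and Mmp23 (0.69, adjusted p = 0.0406). Mmp3 (1.23, adjusted p = 0.0594) and Mmp19 (0.92, adjusted p = 0.056) lay just outside. The call of Mmp23 was lost in 16 of 27 other settings (adjusted p 0.0511 to 0.658). The count moved with single arrays, since it was 0 without mild replicate 2 and 0 without moderate replicate 2.

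Between severe and moderate swelling none of the 9 was called and 0% of all genes were. By limma, 0 of the 9 and 888 of all genes had an unadjusted p under 0.05. The differences ran from -0.27 for Mmp13 to 0.53 for Mmp2. The 95% intervals were -0.69 to 0.90 for Mmp3, -1.82 to 1.27 for Mmp13 and -0.12 to 1.19 for Mmp2, so sizable changes of Mmp13 in either direction are within them.

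Mean signal in mild swelling is given as a share of the severe mean, as a description with no test between genes. Mean signal in mild swelling was 15.6% of that in severe swelling for Mmp13, 30.7% for Mmp9 and 32.2% for Mmp14, and 53% for Mmp23 and 70.2% for Mmp8. Mmp3 was at 43.3%. The other probe sets gave 34.8% for Mmp23 and 19.8% for Mmp9, and without mild replicate 3 Mmp13 was at 4.74%, so the order of the genes is not firm. A test of whether the first step exceeded the change from mild to severe swelling called none of the 9, against 2.72% of all genes in either direction. Mmp3 came nearest, with 1.68 ± 0.65 (adjusted p = 0.18), and without mild replicate 2 it was called at 2.68 (adjusted p = 0.013).

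**Figure D4:**
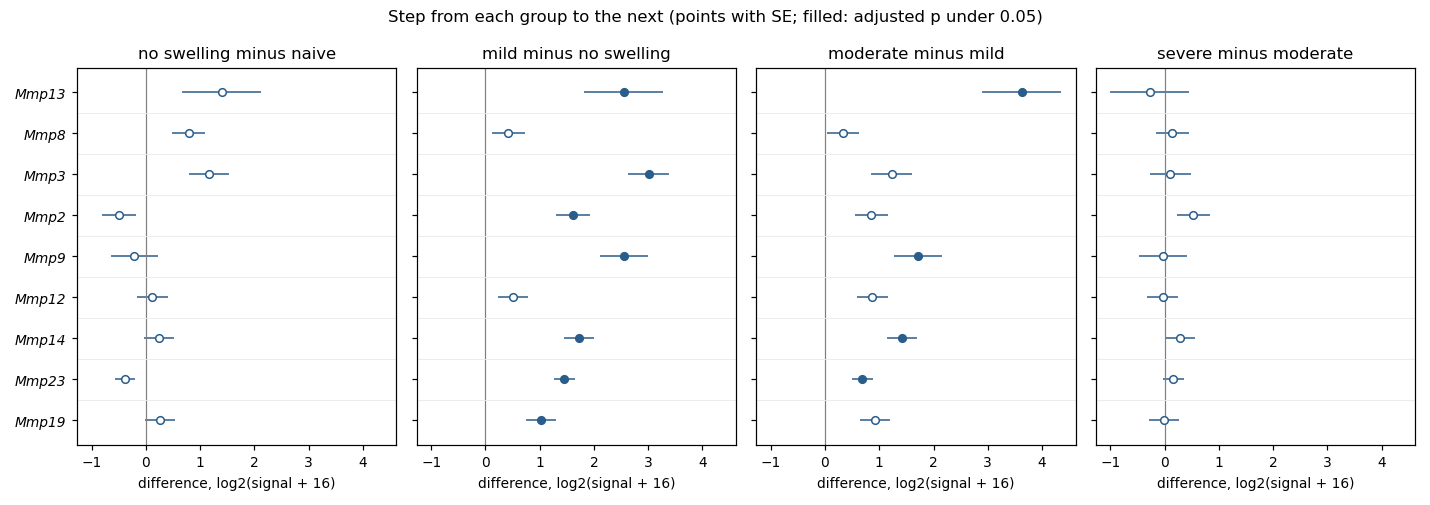
Change at each step of swelling in log2(signal + 16), with ± 1 SE, for the 9 tested genes. Mmp3 has 3.01 at the step between no and mild swelling, Mmp13 has 3.62 between mild and moderate, and the step between moderate and severe swelling lies between -0.27 and 0.53.

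Replicates deviated together across the genes. Mild replicate 3 had the highest of the 3 values for 8 of the 9 and mild replicate 2 the lowest for 7. Moderate replicate 2 was highest for 8, and severe replicate 2 lowest for 7. Of 10 cell type marker lists, 5 had their summed signal in the order of mild replicates 2, 1 and 3, and the other 5 were spread over several other orders. The summed signal of 8 osteoclast markers was 1773.6, 877.7 and 2470.3 on mild replicates 1 to 3, and that of 8 synovial fibroblast markers was 15494.1, 11139.4 and 18501.6. Neutrophil markers summed to 4128.8, 4215.4 and 8728.2, and keratinocyte markers to 200.8, 260.8 and 176.

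Cell type markers differed between the groups as well. In severe swelling against naive, 32.3% of all genes were called higher and 22.9% lower. All 8 synovial fibroblast markers tested were higher in severe swelling than in naive joints, with summed signals of 19977.6 to 27186.2 and of 4846.2 to 5695.2. All 9 macrophage markers were higher too, with sums of 7763 to 11210.2 in severe and 2109.4 to 2402.3 in naive joints. Of 8 neutrophil markers 4 were higher, and Ngp, Camp, Ltf and Mpo were not called (limma adjusted p 0.0911 to 0.549). The sums of the 8 were 8556.6 to 11771.9 in severe and 203.6 to 234.8 in naive joints. In naive joints 3 of the markers lay under the 40th percentile on all arrays. Most of the severe sums came from S100a8 and S100a9, with mean signals of 3905 and 4733. Of 7 osteoclast markers tested 6 were higher (sums of 8, 3376.2 to 5776.4 in severe, 323.6 to 392.3 in naive joints), and of 7 chondrocyte markers 5 were (sums of 9, 3746.9 to 6086.3 in severe, 920.2 to 1073.3 in naive joints). Dcstamp and Ocstamp of the osteoclast list passed the filter only through moderate and severe arrays, and Calcr did not pass. Hapln1 and Col10a1 of the chondrocyte list did not pass either, and Matn3 and Chad were not called. Most of the severe osteoclast sums came from Ctsk and Acp5 (mean signals 3482 and 1111), and most of the chondrocyte sums from Comp (3982). Skeletal muscle markers were bright in both, with sums of 58168.4 to 81478.8 in severe and 73085.5 to 86739.8 in naive joints, and 2 of 8 were lower. In moderate swelling their sums were 37745.1 to 61431.2 and 6 of 8 were lower, where 23.8% of all genes were. In mild swelling the sums were 51268.8 to 57807.8 and 4 of 8 were lower, where 17% of all genes were. The sums of both groups lay under those of naive joints. Among the rest, 4 of 5 adipocyte, 2 of 4 keratinocyte and 1 of 3 osteoblast markers were lower, and 2 of 6 endothelial markers were higher. With quantile normalization Thy1 of the fibroblast list was not called, and with scaling on hybridization controls the lower calls of Mb, Retn, Alpl, Krt5 and Krt10 were lost. The 3′ to 5′ signal ratio of Actb, a measure of RNA integrity, was 1.25 ± 0.029 in severe swelling and 0.978 ± 0.076 in naive joints (SD, n = 3 each). Its group means rose with swelling between these, with 1.10 without swelling, 1.16 in mild and 1.23 in moderate swelling. The ratio of Gapdh was 0.891 in severe swelling, 0.852 in naive joints and 0.828 to 0.848 in the other groups. The part of these differences in the metalloproteinase results was not tested.

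Other genes of the system were taken from lists chosen with earlier results of these data known. Of 13 other metalloproteinase genes 8 had a probe set and 5 were tested. Mmp11, stromelysin 3, was higher in severe swelling than in naive joints by 1.01 ± 0.23 (adjusted p = 0.0012), while Mmp7, matrilysin, with -1.12 ± 0.46, was not called (adjusted p = 0.0507), nor were Mmp16, Mmp17 and Mmp24. Mmp7 was called lower with quantile normalization (adjusted p = 0.0228) and with scaling on hybridization controls (0.0428), and Mmp24 with quantile normalization (0.0137). The median over these 5 was 0.07.

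Counts in these lists stand against 32.3% of all genes called higher and 22.9% called lower in severe swelling against naive, and against 33.1% and 22% in severe against no swelling. Among the inhibitors 4 of 6 were higher and 2 lower in severe swelling than in naive joints. Timp1, an inhibitor of most soluble metalloproteinases, had mean signals of 5363 ± 1324 in severe swelling and 130.9 ± 11.9 in naive joints (SD, n = 3 each), a difference of 5.16 ± 0.42 (adjusted p = 2.09e-07). It was also called in immunized joints without swelling, at 1.82 ± 0.42 (adjusted p = 0.031). Timp4 was lower, with 53.9 ± 27.2 in severe swelling and 324.3 ± 58.7 in naive joints (log2 difference -2.34 ± 0.26, adjusted p = 2.23e-06). Tfpi2, a Kunitz-type protease inhibitor, exceeded naive by 3.29 ± 0.25, and Timp2, which also takes part in activating the Mmp2 proenzyme, by 1.24 ± 0.24. Timp3 was the other lower gene, a call that was lost with scaling on hybridization controls, and the call for Reck, the other higher gene, was lost with quantile normalization. Against no swelling the counts were also 4 higher and 2 lower.

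Of 8 genes tested that activate, bind or work beside the metalloproteinases, 5 were higher and 1 lower in severe swelling than in naive joints. Lcn2, whose protein forms a complex with the Mmp9 protein, differed by 4.80 ± 0.48 and Ctsk, the collagen-cleaving cathepsin of osteoclasts, by 4.37 ± 0.35. Plaur, the urokinase receptor, differed by 1.55 ± 0.21. Bsg, an inducer of metalloproteinases on neighbouring cells, differed by -0.91 ± 0.14, a call that was lost with scaling on hybridization controls. Against no swelling the counts were again 5 and 1.

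Genes of matrix substrates were higher for 14 of 15, and for 15 of 15 against no swelling. The exception was Fmod, with 0.87 (adjusted p = 0.0505). Vcan, a large proteoglycan, differed from naive by 3.32 ± 0.30, Bgn, a small one, by 3.62 ± 0.35, Acan, the main proteoglycan of cartilage, by 3.05 ± 0.42, and Lamb1, a laminin chain, by 2.51 ± 0.26. Of 14 transcription factor genes of the AP-1, ETS, RUNX, C/EBP and NF-kappaB groups, 12 were higher and 1, Etv4, was lower, a call lost with scaling on hybridization controls, while Jun was not called. Junb differed by 3.13 ± 0.20, Fosl2 by 2.52 ± 0.17, Runx1 by 3.18 ± 0.25 and Cebpd by 1.96 ± 0.17, all higher in severe swelling. Against no swelling 12 were higher.

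**Figure D5:**
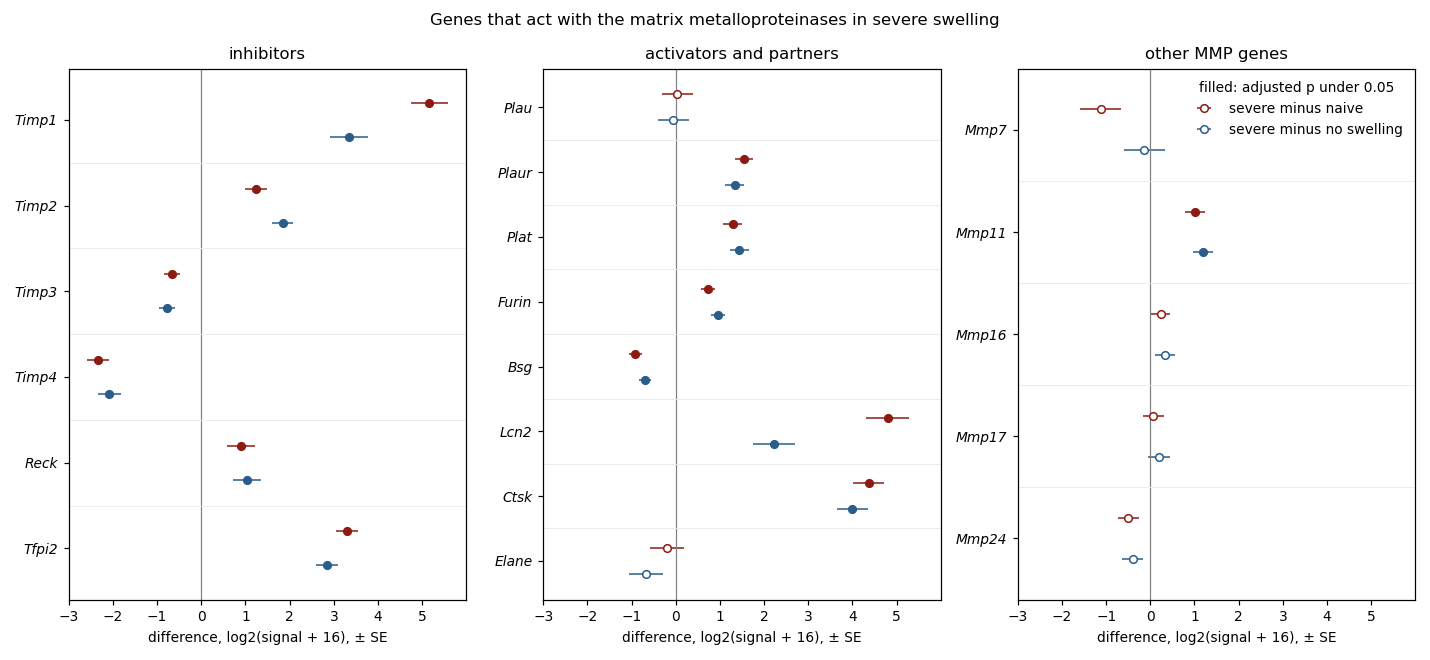
Difference of severe swelling from naive joints and from no swelling, in log2(signal + 16), with ± 1 SE, for the tested inhibitors, activators and partners, and other metalloproteinases, where filled points passed an adjusted p of 0.05. Timp1 lies at 5.16 and Timp4 at -2.34 against naive.

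For each gene, those most alike in pattern were found by the root mean square difference of log2(signal + 16), centred on the gene's mean, over the 15 arrays. Nearest to Mmp3 were Slpi at 0.38 and Tnn at 0.43, where Mmp3 itself had an SD of 2.38. Mmp13 had the largest distances, with Chil1 at 1.08 and Slpi at 1.09, and also the largest SD, 3.28. Antxr1 (0.23) and Col6a3 (0.25) were nearest to Mmp2, Sdc1 and Ncam1 (0.22 each) to Mmp14, and Nt5dc2 (0.48) and Ccn4 (0.54) to Mmp9. Irak3 (0.27) and Tmem97 (0.28) were nearest to Mmp8, and Gbp2 (0.16) and Myof (0.17) to Mmp12. Coro1b and Man2a1 (0.19 each) were nearest to Mmp19, and Gpr137b (0.20) and Glis2 (0.21) to Mmp23. Among the members themselves the nearest pair was Mmp19 and Mmp23, at 0.32. A small distance is easier to reach for a gene that varies little.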

How the data were processed

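Total RNA of knee synovium was hybridized to 1 Affymetrix array per sample. The deposited table holds linear signal intensity for 45101 probe sets, made by the authors with MAS5 per the submitters' processing notes, with no version stated in the labels. No further scaling was applied. Groups came from the titles and source names.

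The platform annotation gave 34958 probe sets 1 symbol and 932 several, and left 9211 unnamed. Each gene was represented by its brightest probe set on average, and 14314 genes were tested, those whose signal passed the 40th percentile of the array on 3 or more of the 15 arrays. Signals were transformed to log2(signal + 16). Group means over all 15 arrays were fitted in R 4.3.3 with limma 3.58.1 and an intensity trend (10 residual and 5.52 prior degrees of freedom), with 10 contrasts and an F test, two-sided, and Benjamini-Hochberg adjustment over all genes tested. The working of the fit was checked on simulated data with noise drawn independently for each gene. On the arrays replicates deviated together across genes, so this check says nothing of the calls made here. With 3 arrays a group, the smallest p of an exact permutation test is 0.1, so none was used.

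The members and lists were chosen with earlier results of these data known. All 10 members are described, and of each related list up to 4 genes with the lowest p in severe swelling against naive are named. Added after their values were seen were Timp3, Reck, Etv4, Fmod, Jun and the neutrophil, osteoclast and chondrocyte markers named. So were the list members whose calls moved with scaling and the untested or uncalled metalloproteinases. The alternatives covered the pseudocount, filter, scaling, probe set rule, replicate block, trend, samples in the fit, and each array left out.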

Additional observations from a re-analysis of the deposited data

How the results depend on the processing

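Under 27 other settings, 2360 of 2420 values of single genes kept their side of the threshold, 42 lost a call and 18 gained one. Of called values 0 reversed, while 48 values without a call changed sign. The counts for severe or moderate swelling against naive were 9 in every setting that left out an array. The count called between moderate and mild swelling, 4, was 2 with a pseudocount of 1, 7 with a pseudocount of 64, 2 without the intensity trend, 0 with only the groups compared, and 0 to 6 with each array left out. Leaving out both arrays singled out, chosen after seeing the data, gave 2. Between no swelling and naive the count of 0 became 1 (Mmp3, adjusted p = 0.0472) with only the groups compared, and 0 to 1 with each array left out. For the first step against later steps it became 1 with scaling on hybridization controls, 1 without both arrays, and 0 to 1 with each array left out. The cause was not tested.

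Same-numbered arrays of different groups correlated at -0.51 to 0.33 in their deviations, with 5 of 30 pairs over 0.1, and 0 of 15 arrays correlated best with their own number, so the numbers were not taken as pairs. The replicate block gave 3 calls between moderate and mild swelling and changed no other count of members called. Scaling on hybridization controls moved the median of all genes in severe swelling against naive to 0.54, from 0.11, and the share of higher among called genes to 87.2%, from 58.5% (51.9% with quantile normalization). In mild against no swelling it moved the median to 0.72, from 0.09, and the share of higher to 99.5%, from 59.6%. A pseudocount of 64 lowered the severe against naive difference of Mmp8 to 0.89 and of Mmp19 to 1.30. Without a naive array or mild replicate 2, the other probe set stood for Mmp23, with 2.98 to 3.15. Low signal limits Mmp10, Mmp12 and naive levels of Mmp13.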
